A study of Homo sapiens with 12 samples.

Results

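NK cell activating ligands were followed as a set of 7 genes across the 4 groups of an Ovcar8 experiment. The genes are ULBP1, ULBP2, ULBP3, MICA and MICB, which encode ligands of the receptor NKG2D, and PVR and NECTIN2, which encode ligands of the receptor DNAM-1. They were taken by gene symbol from the deposited count table, which lists 58735 genes, and all 7 passed the filter on low counts that left 15378 genes to test. The set was chosen by measured values of these libraries: ULBP2 counts were lower with one of the 2 hairpins described next and higher with the other. For that reason the ligand genes are described, and not tested, in the hairpin comparisons, and they are tested only in the comparison of CCNE1 overexpression with control.

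Ovcar8 is an established cell line of high-grade serous ovarian cancer. Each of the 4 groups had 3 RNA-seq libraries: control cells, cells overexpressing CCNE1 (the gene of cyclin E1), and cells that overexpressed CCNE1 and carried either shTMLHE #1 or shTMLHE #2, independent short hairpin RNAs against TMLHE. TMLHE encodes an alpha-ketoglutarate-dependent enzyme of carnitine synthesis. All groups were grown in RPMI-1640 with FBS, transduced with lentivirus and selected with puromycin, and no group with a control hairpin is labelled. Nothing in the labels says whether the 3 libraries of a group came from separate cultures or transductions. P-values therefore measure the spread between these libraries, which may be technical, and a construct cannot be told apart from anything else that set its cell population apart.

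NK cells are lymphocytes that kill stressed, infected or transformed cells when activating signals outweigh inhibitory ones. NKG2D binds a family of ligands that resemble MHC class I and that are low on most healthy cells and induced by stress, DNA damage and proliferation; in this family the ULBP1, ULBP2 and ULBP3 proteins hang on a glycosylphosphatidylinositol (GPI) lipid anchor, while MICA and MICB span the membrane. DNAM-1 binds PVR (CD155) and NECTIN2 (CD112), adhesion proteins that the inhibitory receptors TIGIT and, for NECTIN2, PVRIG also bind. Many carcinomas, ovarian ones included, carry ligands of both receptors, and tumour cells can also shed NKG2D ligands by proteases such as ADAM10 and ADAM17. The files measure RNA only, and surface or shed protein was not analysed here.

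Libraries held 14054101 to 21457503 counts. CPM below are counts per 1000000 after TMM scaling, edgeR's correction for libraries of unlike composition, and 1 CPM stood for 12.1 to 24.3 counts. CCNE1 rose from 33.1 ± 1.28 to 1001 ± 34.0 CPM with overexpression (SD, n = 3), and TMLHE fell from 15.7 ± 2.69 CPM in CCNE1 cells to 0.956 ± 0.286 with shTMLHE #1 and 0.482 ± 0.241 with shTMLHE #2. CCNE1 RNA also differed with the hairpins, at 1269 ± 49.0 CPM with shTMLHE #1 and 847 ± 21.2 with shTMLHE #2. Against the CCNE1 group these were log2 fold changes of 0.34 and -0.24 (edgeR adjusted p = 1.39e-11 and 3.25e-08). The shift of all genes with total counts, given below, is larger than the second change, whose direction is thus not settled. The part of CCNE1 level in the ligand values was not tested. Of 12 markers of serous carcinoma 9 passed the filter, and PAX8, KRT7, KRT8, KRT18 and MSLN were present in every group. EPCAM, CDH1, CLDN3 and CLDN4 also passed but were low, with group means of 2.51 to 3.27, 1.18 to 3.74, 0.566 to 2.35 and 0.567 to 3.74 CPM. WT1 and SOX17 were under 1 CPM and MUC16 was at 0 in every library. Of 16 NK cell receptor and effector genes 15 were under 1 CPM in every library, their summed level was 0.443 to 1.51 CPM, and KLRK1 (NKG2D itself), TIGIT, NCR1 and FCGR3A were at 0 counts. Of 10 leukocyte markers 9 were under 1 CPM in every library, with sums of 1.37 to 3.89 CPM. Of 10 fibroblast and endothelial markers 6 were under 1 CPM in every library and DCN was at 0, but COL1A1 made their sum 901 to 968 CPM in control, 613 to 642 with CCNE1, 1538 to 1631 with shTMLHE #1 and 1259 to 1300 with shTMLHE #2, and its part in the ligand values was not tested. TMM factors were 0.847 to 0.864 in control and CCNE1 libraries and 1.11 to 1.23 in hairpin libraries. Scaling by total counts instead raised the median log2 fold change of all genes by 0.39 with shTMLHE #1 and 0.53 with shTMLHE #2, so directions of small hairpin changes are given with both scalings where they differ.

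Per length of exon, the DNAM-1 ligands and MICB were the most abundant of the set and the ULBP genes the least. In control cells NECTIN2 stood at 67.3 ± 2.64 CPM per kilobase of exons, MICB at 41.1 ± 1.83, PVR at 33.6 ± 1.74 and MICA at 14.4 ± 2.91 (SD, n = 3). ULBP2 stood at 5.01 ± 1.26 CPM per kilobase, ULBP3 at 2.30 ± 0.254 and ULBP1 at 1.99 ± 0.260. The libraries of NECTIN2, MICB, PVR and MICA did not overlap each other in control cells, nor did MICA and ULBP2, while ULBP3 and ULBP1 overlapped. This order changed with the constructs. With CCNE1 overexpression MICB and PVR drew level at 23.0 ± 0.976 and 22.7 ± 0.510 CPM per kilobase. With shTMLHE #2 MICB was the highest of the set at 61.2 ± 1.24, above NECTIN2 at 41.8 ± 2.14, and ULBP2 at 13.2 ± 0.782 reached the level of MICA at 11.9 ± 1.28. With shTMLHE #1 ULBP2 was the lowest of the set at 1.48 ± 0.299 CPM per kilobase, under ULBP3 at 4.01 ± 0.514 and ULBP1 at 4.33 ± 0.208.

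**Figure D1:**
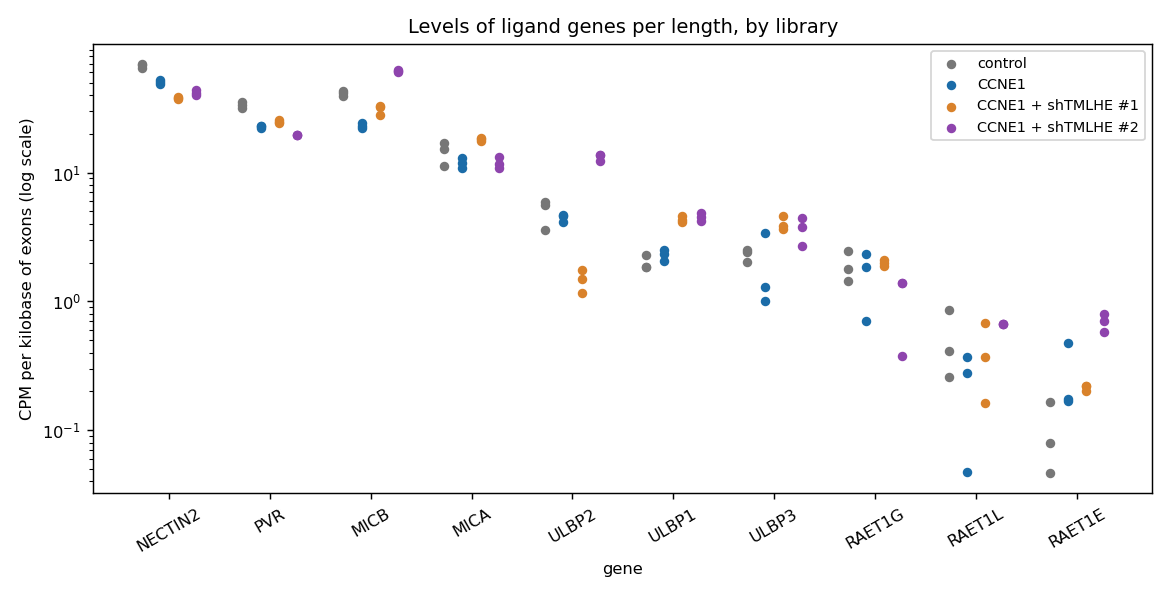
Level per exon length of the 7 ligand genes and of the 3 further NKG2D ligand genes RAET1G, RAET1L and RAET1E in each library (vertical axis, CPM per kilobase of exons, log scale; colours, the 4 groups with 3 libraries each). NECTIN2 is highest in control and CCNE1 libraries, and MICB is highest with shTMLHE #2 at about 61.2 CPM per kilobase. Among the 7 ligand genes ULBP2 spans the widest range on this log scale, from 1.48 with shTMLHE #1 to 13.2 with shTMLHE #2 in group means.

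CCNE1 overexpression went with lower RNA of both DNAM-1 ligands and MICB, and with no call among the ULBP genes. MICA was also called lower, but its groups overlapped and the call was lost in several alternatives given below. Of the 7 ligand genes 4 were called, all lower, in a comparison in which 44.2% of all tested genes were called, 25.1% higher and 19.1% lower (edgeR quasi-likelihood test, Benjamini-Hochberg adjusted p under 0.05 over all tested genes). The median log2 fold change of the 7 genes was -0.33 against 0.05 over all genes. Genes of like GC content (within 1 point) also differed from that median. Their medians were 0.28 for ULBP1, 0.05 for ULBP2, -0.19 for ULBP3, -0.19 for MICA, -0.10 for MICB, -0.20 for PVR and -0.15 for NECTIN2. Among those genes MICB was at percentile 7.33, PVR at 16.8 and NECTIN2 at 24. In 3 of the genes (MICB, PVR and NECTIN2) no CCNE1 library overlapped a control library, and all 3 were lower with CCNE1. Of all tested genes 47.2% did not overlap between these groups, and 21.4% of all tested genes did not overlap and were lower.

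MICB, a stress-induced NKG2D ligand, stood at 110, 116 and 120 CPM in the control libraries and at 61.9, 67.3 and 64.0 in the CCNE1 libraries. Each CCNE1 library was well under each control library, and the group mean fell 1.78-fold (log2 fold change -0.83 ± 0.06 SE, edgeR adjusted p = 5.84e-15). PVR, the higher-affinity DNAM-1 ligand, stood at 112, 124 and 119 CPM in control and at 77.7, 80.4 and 81.0 with CCNE1. It fell 1.48-fold with no overlap (log2 fold change -0.57 ± 0.05, edgeR adjusted p = 1.47e-11). NECTIN2 stood at 257, 241 and 259 CPM in control and at 195, 190 and 184 with CCNE1. Its groups did not overlap either, and it fell 1.33-fold (log2 fold change -0.41 ± 0.04, edgeR adjusted p = 3.04e-10).

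MICA, the close relative of MICB, stood at 36.4, 40.2 and 26.7 CPM in control and at 25.8, 31.1 and 28.1 with CCNE1. Control replicate 3 lay inside the range of the CCNE1 libraries, so the groups overlapped. The fall of 0.28 ± 0.11 on the log2 scale just passed (edgeR adjusted p = 0.0346), and the call was lost without control replicate 1 (-0.24), control replicate 2 (-0.16), CCNE1 replicate 1 (-0.22) or CCNE1 replicate 3 (-0.27). It was also lost with DESeq2 (-0.28, adjusted p = 0.0763), and after the trend of fold change with GC content and gene length was subtracted (-0.08, adjusted p = 0.611), called the GC correction from here on.

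None of the GPI-anchored ligands passed the test with CCNE1. ULBP1 had overlapping groups and a log2 fold change of 0.21 ± 0.16 (edgeR adjusted p = 0.318), which was -0.02 after the GC correction. ULBP2 gave -0.15 ± 0.19 (adjusted p = 0.538) and ULBP3 -0.33 ± 0.35 (adjusted p = 0.483). The ULBP3 value depended on single CCNE1 libraries. ULBP3 was at 3.36 CPM in CCNE1 replicate 1, against 0.990 and 1.27 in the other CCNE1 libraries and 1.99 to 2.46 in control. Without CCNE1 replicate 1 ULBP3 passed, at -1.01 (edgeR adjusted p = 0.0200), while without CCNE1 replicate 2 it was at -0.0041. Its direction and size with CCNE1 are thus not settled. The ULBP genes had the fewest counts of the set, 18 to 117 per control or CCNE1 library.

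**Figure D2:**
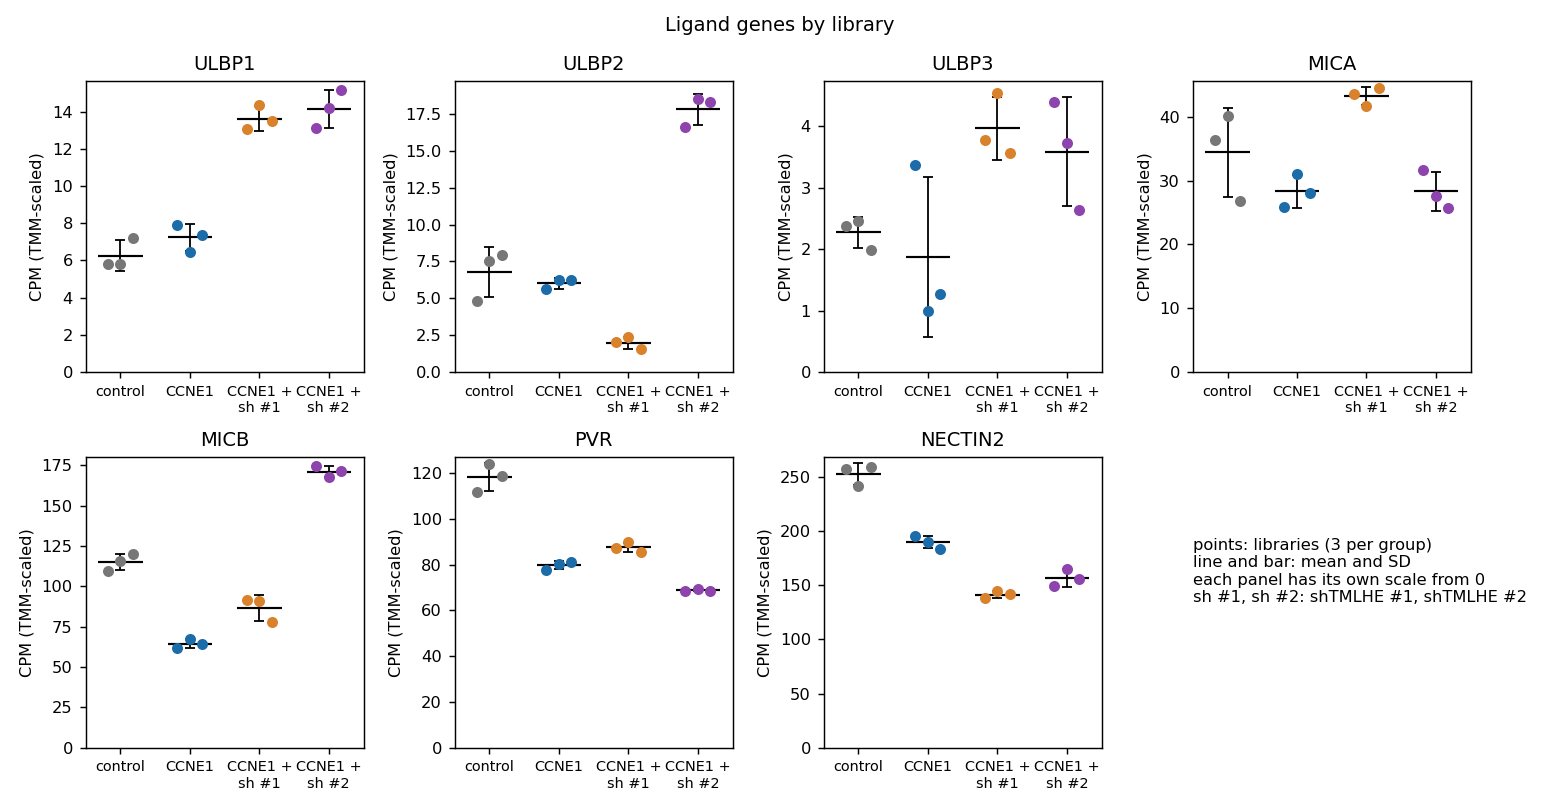
CPM of each ligand gene (vertical axes, each from 0) in the 12 libraries, with group means and SD; columns are control, CCNE1, CCNE1 with shTMLHE #1 and CCNE1 with shTMLHE #2. MICB, PVR and NECTIN2 are lower in all CCNE1 libraries than in all control libraries, and ULBP2 is lowest with shTMLHE #1 (1.57 to 2.38 CPM) and highest with shTMLHE #2 (16.6 to 18.5 CPM).

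The hairpin comparisons set shTMLHE #1 and shTMLHE #2 each against the same 3 CCNE1 libraries, which they share. Since the set was chosen for a pattern across these groups, the values that follow are a description. With shTMLHE #1 no ligand gene overlapped the CCNE1 libraries: ULBP1, ULBP3, MICA, MICB and PVR were above them, and ULBP2 and NECTIN2 below, where 63.9% of all genes did not overlap (32.5% higher, 31.4% lower). With shTMLHE #2, ULBP1, ULBP2 and MICB were above, PVR and NECTIN2 below, and ULBP3 and MICA overlapped, where 75.6% of all genes did not overlap (38.7% higher, 36.9% lower). Median log2 fold changes of the 7 genes were 0.43 and 0.97 against 0.03 and 0.03 over all genes. Non-overlap was thus common among all genes in both comparisons, and its frequency in the set is not read as a result.

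The ULBP genes lie together on chromosome 6, within 186 kb that also hold the RAET1 genes. ULBP1 (ENSG00000111981) is at 149964007 to 149973710 on the forward strand of GRCh38, ULBP2 (ENSG00000131015) at 149942000 to 149949235 on the forward strand, and ULBP3 (ENSG00000131019) at 150063150 to 150069095 on the reverse strand. The bases before their RefSeq starts (GRCh38.p14) are shown because neighbouring genes of the family differed in the hairpin groups, with the cAMP response element half-site TGACG (either strand) in capitals. They cover chr6:149963693-149963942 for ULBP1, chr6:149941764-149941999 for ULBP2 and chr6:150069122-150069371 for ULBP3, each read 5′ to 3′ on its gene's strand and cut before any base that GENCODE 29 places in an exon of the gene.
ULBP1: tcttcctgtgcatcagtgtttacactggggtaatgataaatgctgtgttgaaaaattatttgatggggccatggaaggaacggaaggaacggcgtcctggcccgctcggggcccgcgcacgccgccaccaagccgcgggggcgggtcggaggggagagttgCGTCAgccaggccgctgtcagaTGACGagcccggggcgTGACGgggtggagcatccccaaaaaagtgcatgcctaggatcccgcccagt
ULBP2: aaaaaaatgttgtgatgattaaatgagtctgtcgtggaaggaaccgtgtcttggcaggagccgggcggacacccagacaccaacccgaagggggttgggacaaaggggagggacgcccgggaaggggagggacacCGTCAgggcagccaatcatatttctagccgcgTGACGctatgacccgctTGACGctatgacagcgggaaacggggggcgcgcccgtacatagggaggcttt
ULBP3: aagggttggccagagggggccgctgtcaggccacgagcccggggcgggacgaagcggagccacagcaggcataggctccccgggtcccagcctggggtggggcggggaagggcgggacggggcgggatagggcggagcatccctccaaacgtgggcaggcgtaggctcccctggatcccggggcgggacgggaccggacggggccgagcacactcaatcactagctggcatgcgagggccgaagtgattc
In the 250 bases before the start TGACG occurred 3 times in ULBP1, at 89, 67 and 51 bases before it, and 3 times in ULBP2, at 115, 83 and 66. It did not occur in that window of ULBP3, MICA, MICB, PVR or NECTIN2. Among 35116 RefSeq promoters of the same length 21.2% held the half-site at least once and 1.00% at least 3 times. ULBP3 instead held 6 GC boxes (GGGCGG, either strand), a number of at least 4 being found in 7.63% of promoters, and 72.0% of its window was G or C against 61.6% in ULBP1 and 58.0% in ULBP2. ULBP1 and ULBP2 each held 3 half-sites, and their values in the hairpin groups, given next, differed.

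ULBP1 stood at 5.79, 5.79 and 7.20 CPM in control, 7.92, 6.44 and 7.35 with CCNE1, 13.0, 14.3 and 13.5 with shTMLHE #1 and 13.1, 14.2 and 15.1 with shTMLHE #2. All hairpin libraries were above all libraries without a hairpin, the hairpin groups overlapped each other, and so did control and CCNE1. Against CCNE1 the log2 fold changes were 0.92 ± 0.15 with shTMLHE #1 and 0.97 ± 0.14 with shTMLHE #2 (SE). ULBP1 has a GC content of 42.6%, and tested genes within 1 point of that had a median log2 fold change of 0.23 with shTMLHE #1 and 0.59 with shTMLHE #2. After the GC correction ULBP1 was at 0.73 and 0.43.

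ULBP2 stood at 4.81, 7.53 and 7.95 CPM in control, 5.60, 6.27 and 6.21 with CCNE1, 2.03, 2.38 and 1.57 with shTMLHE #1 and 16.6, 18.5 and 18.3 with shTMLHE #2. Control and CCNE1 overlapped, every shTMLHE #1 library lay below both, and every shTMLHE #2 library above both. Its mean was 3.02-fold lower than in CCNE1 cells with the first hairpin and 2.96-fold higher with the other, so the hairpin groups stood 8.94-fold apart. The log2 fold changes were -1.59 ± 0.21 and 1.56 ± 0.17, and -3.15 ± 0.19 between the hairpins. Scaling by total counts gave -1.20 and 2.09 and the GC correction -1.37 and 1.63, and leaving out any library gave -1.74 to -1.46 and 1.51 to 1.61. Opposite non-overlapping directions were found in 6.67% of all tested genes. The counts behind these values were 26 to 43 per library with shTMLHE #1 and 327 to 404 with shTMLHE #2.

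ULBP2 RNA is not fully separable from its relatives, since 32.2% of the 50-base windows of its transcript also occur in RAET1L or RAET1G. RAET1L, at 0.0634 to 1.16 CPM, and RAET1G, at 0.561 to 3.62 CPM, were far below ULBP2 in shTMLHE #2 libraries, where RAET1G was at 2.06, 2.07 and 0.561 CPM. In shTMLHE #1 libraries RAET1G was at 2.96, 3.10 and 2.78 CPM, above ULBP2 at 2.03, 2.38 and 1.57. How the authors' counting treated reads that match several genes is not given in the sources used here.

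ULBP3 stood at 2.37, 2.46 and 1.99 CPM in control, 3.36, 0.990 and 1.27 with CCNE1, 3.78, 4.54 and 3.57 with shTMLHE #1 and 4.40, 3.72 and 2.64 with shTMLHE #2. The hairpin groups overlapped each other and lay above control, and the CCNE1 libraries were spread from the lowest value of all to one within the range of shTMLHE #2. Log2 fold changes against CCNE1 were 1.13 ± 0.33 and 0.99 ± 0.32. Without CCNE1 replicate 1 they were 1.81 and 1.68, and without CCNE1 replicate 2 they were 0.80 and 0.67.

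The MIC genes lie in the MHC class I region of chromosome 6, MICA (ENSG00000204520) at 31399784 to 31415315 and MICB (ENSG00000204516) at 31494881 to 31511124 of GRCh38, both on the forward strand. Their upstream sequences are shown as the most alike of the set, with the motif GAANNTTC, a core of heat shock elements, in capitals: chr6:31403345-31403578 for MICA and chr6:31497895-31498085 for MICB, again cut before annotated exon bases.
MICA: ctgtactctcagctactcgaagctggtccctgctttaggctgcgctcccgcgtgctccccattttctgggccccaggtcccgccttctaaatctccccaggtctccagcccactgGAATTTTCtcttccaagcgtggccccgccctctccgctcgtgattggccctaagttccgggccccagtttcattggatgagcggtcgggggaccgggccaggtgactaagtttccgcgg
MICB: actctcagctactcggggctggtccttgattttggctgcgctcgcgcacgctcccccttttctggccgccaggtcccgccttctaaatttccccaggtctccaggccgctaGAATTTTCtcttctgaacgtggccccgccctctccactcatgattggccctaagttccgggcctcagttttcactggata
Over the full 250 bases before the start the pair was identical in 210 of 254 aligned columns, or 82.7%, where other pairs among the 7 genes and the RAET1 genes shared 36.6 to 53.8%. GAANNTTC occurred once in each, 135 bases before the start in MICA and 139 in MICB, and in 5.78% of all promoters. CCAAT (either strand) occurred 2 times in MICA and 1 time in MICB, and in 32.01% of promoters.

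MICA stood at 36.4, 40.2 and 26.7 CPM in control, 25.8, 31.1 and 28.1 with CCNE1, 43.6, 41.8 and 44.5 with shTMLHE #1 and 31.7, 27.6 and 25.8 with shTMLHE #2. The shTMLHE #1 libraries were above all others, and the other 3 groups overlapped. Log2 fold changes against CCNE1 were 0.61 ± 0.10 with shTMLHE #1 and 0.00 ± 0.11 with shTMLHE #2. The latter was 0.53 with total counts and 0.50 after the GC correction. MICA has a GC content of 55.0%, and genes within 1 point of that had a median of -0.45 with shTMLHE #2.

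MICB stood at 110, 116 and 120 CPM in control, 61.9, 67.3 and 64.0 with CCNE1, 91.3, 91.0 and 77.7 with shTMLHE #1 and 175, 168 and 171 with shTMLHE #2. No pair of groups overlapped, and the order was shTMLHE #2, control, shTMLHE #1 and CCNE1. Against CCNE1 the log2 fold changes were 0.43 ± 0.06 and 1.41 ± 0.06, and the scaling by total counts gave 0.82 and 1.94. In TMM-scaled CPM MICB was 1.33-fold below control with shTMLHE #1 and 1.49-fold above it with shTMLHE #2. With total counts the fall with CCNE1 (-0.85) and the rise with shTMLHE #1 (0.82) were of about the same size. The pair that shares most upstream sequence differed in the group with the highest level: shTMLHE #1 for MICA and shTMLHE #2 for MICB. Only 2.43% of MICA's and 2.86% of MICB's 50-base windows occur in other genes.

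The DNAM-1 ligands lie within 245 kb on chromosome 19, PVR (ENSG00000073008) at 44643798 to 44663583 and NECTIN2 (ENSG00000130202) at 44846175 to 44889228, both on the forward strand. PVR stood at 112, 124 and 119 CPM in control, 77.7, 80.4 and 81.0 with CCNE1, 87.2, 89.7 and 85.6 with shTMLHE #1 and 68.6, 69.2 and 68.7 with shTMLHE #2. No pair of groups overlapped, and control was the highest. Against CCNE1 PVR changed by 0.13 ± 0.05 with shTMLHE #1 and by -0.21 ± 0.05 with shTMLHE #2 on the log2 scale, and the latter turned to 0.32 with total counts and to 0.27 after the GC correction.

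NECTIN2 stood at 257, 241 and 259 CPM in control, 195, 190 and 184 with CCNE1, 138, 144 and 141 with shTMLHE #1 and 149, 165 and 156 with shTMLHE #2. No pair of groups overlapped here either, and both hairpin groups were below CCNE1, which was below control. The log2 fold changes were -0.42 ± 0.04 and -0.28 ± 0.04 against CCNE1, but -0.03 and 0.25 with total counts and -0.10 and 0.57 after the GC correction. NECTIN2 has the highest GC content of the set at 59.4%, and genes within 1 point of that had medians of -0.27 and -0.83 in these comparisons. The direction of NECTIN2 with shTMLHE #2 thus turned with the scaling.

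**Figure D3:**
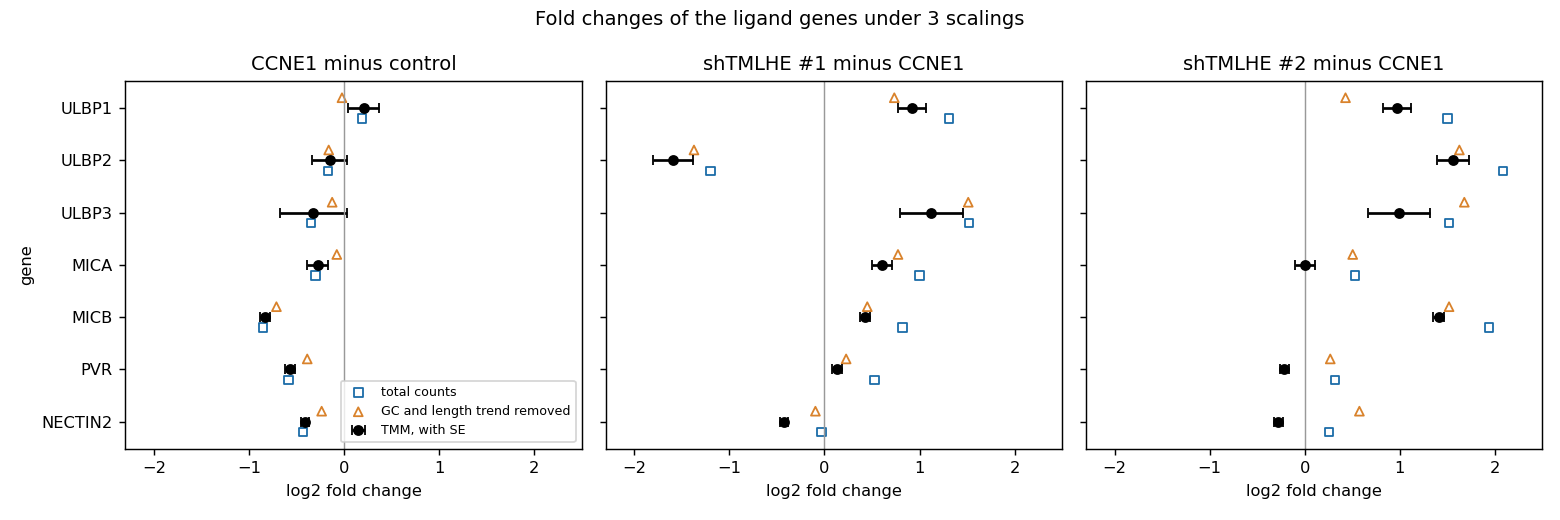
Log2 fold changes of the ligand genes (horizontal axis) in 3 comparisons with TMM scaling (black points, bars are SE), scaling by total counts (squares) and the GC correction (triangles). ULBP2 keeps opposite signs with the hairpins under each scaling, while NECTIN2 and PVR with shTMLHE #2 lie below 0 with TMM and above 0 with the other 2.

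Summed over each receptor, the groups ranked differently. The 8 NKG2D ligand genes, RAET1E, RAET1G and RAET1L included, summed to 163 to 175 CPM in control libraries, 107 to 117 with CCNE1, 145 to 158 with shTMLHE #1 and 236 to 245 with shTMLHE #2. PVR and NECTIN2 together summed to 365 to 378, 265 to 273, 226 to 234 and 217 to 234 CPM in the same order. The NKG2D sums of no 2 groups overlapped and were highest with shTMLHE #2, while the DNAM-1 sums were highest in control and overlapped between the hairpins. MICB made up most of the NKG2D sum in every group, with means of 115, 64.4, 86.6 and 171 CPM in the same order. With CPM by total counts the DNAM-1 sums were 314 to 325, 226 to 231, 251 to 261 and 265 to 287, so the hairpin groups then stood above CCNE1 and not below it. The NKG2D sums by total counts were 141 to 150.0, 90.2 to 98.9, 160 to 177 and 290 to 299, and the shTMLHE #1 group then stood above control.

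Of the other NKG2D ligand genes RAET1L averaged under 1 CPM in every group, and so did RAET1E except with shTMLHE #2 (2.08 CPM). RAET1G averaged 2.81 CPM in control and 2.43 with CCNE1, above ULBP3 at 2.27 and 1.87. With shTMLHE #1 and #2 RAET1G averaged 2.95 and 1.56 CPM, below ULBP3 at 3.96 and 3.59. RAET1E had 2 to 6 counts in control libraries, 7 to 26 with CCNE1, 10 to 12 with shTMLHE #1 and 31 to 51 with shTMLHE #2. It was called higher with CCNE1 (log2 fold change 1.54 ± 0.62, edgeR adjusted p = 0.0410), a call lost without control replicate 1 (1.19), control replicate 2 (1.43), CCNE1 replicate 2 (0.84) or any shTMLHE #2 library (1.53). It was higher again with shTMLHE #2 (1.30 ± 0.47, adjusted p = 0.0127; lost without CCNE1 replicate 3, at 1.04, or shTMLHE #2 replicate 2, at 1.19), and 33.3% of its windows occur in other genes. RAET1L, at 1 to 22 counts, was called higher with shTMLHE #2 (1.495 ± 0.66, adjusted p = 0.0406), which was lost without CCNE1 replicate 1 (1.61) or 3 (1.02), shTMLHE #1 replicate 2 (1.495) or any shTMLHE #2 library (1.4946 to 1.5016). RAET1G, at 10 to 56 counts, did not pass in any comparison with control or CCNE1 (adjusted p = 0.708, 0.558 and 0.139), except with shTMLHE #2 when CCNE1 replicate 1 was left out (-0.96, adjusted p = 0.0174).

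The genes that make, attach, shed or compete with these ligands were read from lists, in which genes outside the set were tested with both hairpins. In those comparisons 60.7% and 73.0% of all genes were called with shTMLHE #1 and #2, 23.2% higher with both, 23.6% lower with both and 5.81% in opposite directions. Higher calls made up 50.04% and 50.4% of calls, but 75.9% and 70.7% with total counts and 41.1% and 42.8% after the GC correction, so counts of hairpin calls are given for these scalings as well. With CCNE1 25.1% of all 15378 tested genes were called higher and 19.1% lower (3866 and 2936 genes). After the GC correction these were 3108 and 2519 genes. The list counts below are to be read beside these shares. Of 26 tested genes of GPI anchor synthesis, the lipid tether of ULBP proteins, 6 rose and 10 fell with both hairpins (11 and 6 with total counts, 3 and 10 after the GC correction). Their summed TMM-scaled level was 1230 to 1262 CPM in CCNE1 libraries, 765 to 801 with shTMLHE #1 and 613 to 639 with shTMLHE #2. That sum was not taken with total counts, a scaling that raises hairpin levels as given above. DPM3, a subunit of the enzyme that makes the mannose donor, fell by 1.51 ± 0.08 and 3.06 ± 0.09 on the log2 scale (edgeR adjusted p = 4.68e-19 and 9.59e-28). GPAA1, a subunit of the transamidase that attaches the anchor, fell from 465 to 172 and 134 CPM after a rise from 365 with CCNE1, and PIGQ fell by 1.17 and 1.88. PIGA, of the enzyme for the first step, rose by 1.31 ± 0.36 and 3.09 ± 0.33 (adjusted p = 0.00178 and 1.80e-10). With CCNE1 7 of the 26 rose and 5 fell (3 and 5 after the GC correction), among the latter PIGS (-0.56) and PIGT (-0.36), also transamidase subunits. With the hairpins PIGS was at 0.77 and 0.39. PIGT was at -0.22 and -1.04, the former being 0.18 with total counts.

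Of 8 tested shedding proteases and partners, 3 rose with both hairpins (ADAM9, ADAM10, PDIA6), TIMP1 fell with both, and MMP14 and TIMP2 were called higher with shTMLHE #1 and lower with shTMLHE #2. With total counts 6 rose and 1 fell with both and none went in opposite directions, and after the GC correction 3 rose, 1 fell and none were opposite, MMP14 and TIMP2 being above 0 with shTMLHE #2 in either case. ADAM10, a sheddase of MICA and ULBP2, rose from 34.2 to 79.2 and 84.7 CPM (log2 fold changes 1.22 and 1.32), the latter change being -0.10 after the GC correction. ADAM9 rose from 156 to 229 and 433 CPM, and TIMP1, a metalloprotease inhibitor, fell from 274 to 116 and 99.2 CPM. ADAM17, the other main sheddase, was at -0.14 with shTMLHE #1 (adjusted p = 0.254) and rose by 0.99 with shTMLHE #2 (adjusted p = 1.31e-11), and the hairpin groups differed by -1.13 (adjusted p = 6.73e-13), where 60.3% of all genes differed. After the GC correction ADAM17 was at -0.82 and -0.22, and with total counts it was at 0.25 with shTMLHE #1. With CCNE1 ADAM9 and ADAM10 rose (0.56 and 0.57, adjusted p = 6.56e-14 and 1.52e-06), while MMP14, PDIA6, TIMP1 and TIMP2 fell. After the GC correction the ADAM10 rise with CCNE1 (0.12) and the falls of TIMP1 (-0.06) and TIMP2 (-0.14) were no longer called, leaving 1 higher and 2 lower. The TIMP2 call with shTMLHE #2 (-0.18) was lost without CCNE1 replicate 2 or 3 or any shTMLHE #2 library (-0.18 to -0.14).

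Ligands of other activating receptors were split. Of 11 tested, 3 rose with both hairpins (NCR3LG1, CD58 and CD59), BAG6 fell with both and CALR went in opposite directions, being at -0.12 with shTMLHE #2 but at 0.41 with total counts and 0.34 after the GC correction. With total counts 6 of the 11 rose with both and 1 fell, and after the GC correction 3 rose and 1 fell. NCR3LG1, or B7-H6, a ligand of NKp30, rose from 6.48 to 11.3 and 20.1 CPM (0.81 and 1.64), and CD58, the ligand of CD2, from 3.66 to 7.10 and 11.8 CPM (0.95 and 1.67). BAG6, which is also bound by NKp30, fell from 1020 to 669 and 434 CPM. CD59 rose by 0.72 and 0.21, but was at -0.41 with shTMLHE #2 after the GC correction. With CCNE1 1 of the 11 rose and 5 fell (0 and 4 after the GC correction), among them the adhesion ligand ICAM1 (65.9 to 33.9 CPM, log2 fold change -0.96) and TNFSF9, the ligand of 4-1BB (-0.72). Of 4 further nectin and nectin-like genes 2 were tested, and both rose with CCNE1: NECTIN1 by 0.90 (adjusted p = 0.00206) and NECTIN3 by 0.53 (adjusted p = 0.0128; lost without control replicate 1, at 0.40, or CCNE1 replicate 2, at 0.47, and after the GC correction, at 0.15). NECTIN3, which pairs with PVR and NECTIN2 in cell adhesion, rose with both hairpins, from 5.98 to 11.9 and 26.2 CPM (adjusted p = 3.49e-07 and 1.76e-16).

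Ligands of inhibitory receptors included the class I genes that neighbour MICA and MICB. Of 13 tested, 4 rose and 5 fell with CCNE1 (3 and 6 after the GC correction), with HLA-B, HLA-C, HLA-E and HLA-F among those that fell (log2 fold changes -0.66, -0.62, -0.53 and -0.46). With both hairpins 4 fell (HLA-E, B2M, PCNA and HMGB1), CDH2 rose, and HLA-B and HLA-C were among those called higher with shTMLHE #1 and lower with shTMLHE #2. With total counts none of the 13 fell with both hairpins, 3 rose and 3 were opposite, and after the GC correction 4 fell, 3 rose and none were opposite. HLA-B and HLA-C with shTMLHE #2 were at -0.29 and -0.85, but at 0.66 and 0.32 after the GC correction, and HLA-B was at 0.24 with total counts. HLA-E, the ligand of NKG2A, was at -0.32 and -0.56, the former being 0.07 with total counts. HMGB1, a ligand of inhibitory TIM-3, was at -0.34 and -0.11, but at 0.05 and 0.42 with total counts, and its call with shTMLHE #2 was lost without CCNE1 replicate 1 (-0.08) or 2 (-0.10) or shTMLHE #2 replicate 1 (-0.10) or 2 (-0.09). PCNA, bound by NKp44 as an inhibitory ligand, rose by 0.46 with CCNE1 and was at -0.51 and -0.38 with the hairpins, the latter being 0.15 with total counts. CDH2, a ligand of KLRG1, rose from 69.2 to 101 and 130 CPM.

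**Figure D4:**
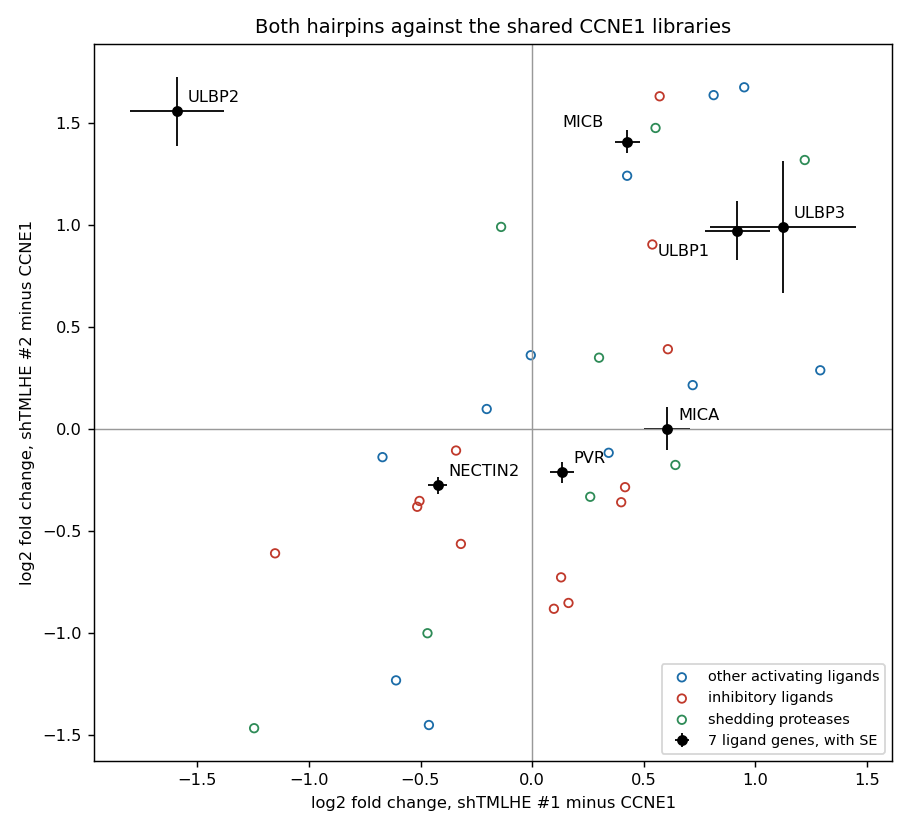
Log2 fold change with shTMLHE #2 (vertical axis) against that with shTMLHE #1 (horizontal axis), both relative to the same CCNE1 libraries, for the 7 ligand genes (black, bars are SE) and the tested genes of 3 lists (open circles). ULBP2 at -1.59 and 1.56 lies in the upper left, ULBP1 and ULBP3 lie near 1 on both axes, and MICB is displaced toward shTMLHE #2 and MICA toward shTMLHE #1.

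Regulators reported for NKG2D ligand genes also moved in both directions. Of 21 tested, 12 rose and 3 fell with CCNE1 (9 and 1 after the GC correction), and 6 rose and 9 fell with both hairpins (10 and 3 with total counts, 3 and 10 after the GC correction). SP1 and EZH2 were called lower with shTMLHE #1 and higher with shTMLHE #2, but after the GC correction they were at -0.55 and -0.28 with shTMLHE #2, and EZH2 was at 0.19 with shTMLHE #1 by total counts. The SP1 call with shTMLHE #2 (0.14) was lost without CCNE1 replicate 1 (0.10) or shTMLHE #2 replicate 3 (0.13). ATF4, a stress response factor, rose by 0.43 with CCNE1 (adjusted p = 2.10e-13), EZH2 by 0.47 and NFE2L2 by 0.68. ATM, the DNA damage kinase, rose from 18.5 to 39.8 and 50.7 CPM with the hairpins, and lost the call with shTMLHE #2 after the GC correction (0.07). E2F1, a factor of S phase genes, fell from 141 to 68.1 and 37.1 CPM, E2F2 fell by 0.85 and 0.93, and SP3 rose by 0.74 and 1.84 (0.11 with shTMLHE #1 after the GC correction, no longer a call). Of 7 tested genes of death receptor signalling 1 rose and 4 fell with CCNE1 (0 and 4 after the GC correction), and 2 rose and 1 fell with both hairpins (4 and 0 with total counts, 2 and 0 after the GC correction). TNFRSF10B, a TRAIL receptor, rose from 55.7 to 120 and 135 CPM after a fall from 76.2 with CCNE1, and the decoy receptor TNFRSF10D rose from 11.9 to 19.5 and 35.8.

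The expression patterns most like those of the ligand genes were searched by Pearson correlation of log2 CPM over the 12 libraries, which share the 4 groups, among the 11526 tested genes whose log2 CPM averaged 1 or more. ULBP2 was most like RPN2, a subunit of oligosaccharyltransferase (0.98), followed by ENPP1 and KCTD10 (0.98 each). RPN2 stood at 227, 205, 147 and 300 CPM in control, CCNE1, shTMLHE #1 and shTMLHE #2, the same order of groups as ULBP2 on a narrower scale. HERC2P2 and KIF3A were among the genes most like ULBP1, MICB was most like ZFP82 (0.97), MDC1 and ODC1, and PVR was most like TUBB6 (0.99), GNAS and P4HB. NECTIN2 was most like MAGED1 (0.99), CNP and NRXN2, ULBP3 most like ERVK13-1 (0.91), ZNF266 and PPIC, and MICA most like CDCA4 (0.91), CCDC149 and BARHL2. Among the ligand genes themselves the correlations furthest from 0 were negative, at -0.88 for ULBP1 and NECTIN2 and -0.75 for ULBP2 and MICA. PVR and NECTIN2 correlated at 0.73, ULBP1 and ULBP3 at 0.69, MICB and ULBP2 at 0.68 and ULBP1 and PVR at -0.65. ULBP1 and ULBP2 were at 0.01 and MICA and MICB at -0.18. These values are a description of 12 libraries in 4 groups.

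Genes beside the loci did not all follow the ligands. Beyond the ULBP stretch PPP1R14C rose with both hairpins (0.89 and 1.16, adjusted p = 6.69e-07 and 1.02e-09), as ULBP1 and ULBP3 were higher there. HCP5, whose gene overlaps MICA, fell with CCNE1 (-0.86) and further with shTMLHE #2, from 32.5 to 12.8 CPM (-1.35, adjusted p = 9.18e-17), where MICB was 2.65-fold higher. DDX39B, on the other side of MICB, fell with CCNE1 (-0.60) and rose with the hairpins (0.58 and 0.92), the same directions as MICB. Beside NECTIN2, TOMM40 rose by 0.26 with CCNE1 (adjusted p = 6.88e-06), where NECTIN2 fell, and was at -0.33 and -0.31 with the hairpins, but at 0.07 and 0.22 with total counts. APOE, the next gene, fell with CCNE1 from 4.69 to 1.96 CPM (-1.25, adjusted p = 0.00113), the direction of NECTIN2. On the other side of PVR, ZNF180 rose with CCNE1, from 0.218 to 1.22 CPM (2.34, adjusted p = 0.000615), and with the hairpins to 3.29 and 5.39 CPM (1.465 and 2.17, adjusted p = 0.000449 and 4.76e-07).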

How the data were processed

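RNA of 12 Ovcar8 libraries in 4 groups of 3 was sequenced. The authors deposited raw read counts per gene, whole numbers for which the submitters' processing notes name STAR 2.6.1 and GRCh38. No source used here names the program that counted the reads, its use of strand or its assignment of reads shared by genes. The authors also deposited FPKM per gene, which equal the counts divided by gene length and by 0.819 to 1.21 times the library's total, per the values themselves. The FPKM were used only in alternatives. The deposited gene lengths matched GENCODE 29, from which exon overlaps and GC content were taken, and 0 columns of the tables were left unused.

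The counts were tested with edgeR 4.0.16 (quasi-likelihood, robust, TMM, filterByExpr, Benjamini-Hochberg over 15378 genes, 8 residual degrees of freedom). All adjusted p-values in the text are edgeR's unless another tool is named. The 43357 other genes were not tested. The fit ran in R 4.3.3 and was tested on simulated data. Alternatives were RLE, upper quartile and total count scaling, other filters, DESeq2 1.42.0, limma-voom, limma-trend on log2 FPKM with a pseudocount of 0.1 or 1 (limma 3.58.1), only the compared groups, a replicate block, each library left out, a threshold of 0.01, and removal of the trend of fold change with GC content and length.

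The members and the 13 gene lists were chosen with earlier results of these data known. Beyond the ligand genes and the other NKG2D ligands, the rule for named genes took from each list up to 3 genes with the smallest p among calls with CCNE1, up to 4 called the same way with both hairpins, the 3 genes most like each member, and the 2 nearest tested genes on each side of each locus. Genes named to complete a count, those called in opposite directions, ADAM17, HMGB1 and single marker genes were added after their values were seen, and so was the restriction of the neighbours described to some with a mean above 2 CPM. Promoters came from RefSeq (GRCh38.p14), in which 7 of 7 ligand genes matched among 35116 entries. Some results that these rules would name are not reported here.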

Additional observations from a re-analysis of the deposited data

Results flagged for a closer look

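Several genes went in opposite directions with the hairpins, each hairpin being read against the same CCNE1 libraries. ULBP2 was at -1.59 (log2) with shTMLHE #1 and at 1.56 with shTMLHE #2, with every library of the first below and every library of the second above all CCNE1 libraries. PVR was at 0.13 with shTMLHE #1 and at -0.21 with shTMLHE #2, again without overlap with CCNE1, and its value with shTMLHE #2 turned to 0.32 with total counts and to 0.27 after the GC correction. The difference between the hairpins was not tested for these ligand genes, since the set was chosen by it. Of all tested genes 6.67% had non-overlapping libraries in opposite directions, and 5.81% were called in opposite directions. In the lists, 8 reported genes had such libraries and a called difference of shTMLHE #1 minus shTMLHE #2, and their number is not read as a result. In log2 units the differences were 0.46 in CALR, 0.70 in HLA-B, 1.02 in HLA-C, 0.59 in MMP14, 0.82 in TIMP2, -0.58 in SP1, -0.53 in EZH2 and 1.10 in the serous carcinoma marker PAX8 (edgeR). PAX8 kept its signs against CCNE1 with total counts (0.87 and -0.10) and after the GC correction (0.51 and -0.20), while the other 7 turned sign in at least 1 hairpin comparison with one of these, as given above.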

How the results depend on the processing

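Counts of calls over all genes stayed within 1.5 times their value under every alternative. Called genes were 6802 with CCNE1, 9338 with shTMLHE #1, 11224 with shTMLHE #2 and 9277 between the hairpins. They were 5627, 8578, 9647 and 7412 after the GC correction, and leaving out 1 library gave 6168 to 6778, 8629 to 9447, 10661 to 11371 and 8437 to 9552. Of the 7 ligand genes 4 were called with CCNE1, and 3 to 4 in these settings. With DESeq2, limma-voom or limma-trend 3 were called. Replicate numbers did not pair the libraries (correlations of same-numbered libraries -0.047 to 0.021). With the replicate number as a block the calls were 6624, 9231, 11123 and 9125, with 4 ligand genes, and the RAET1E rise with CCNE1 (1.46), the RAET1L rise with shTMLHE #2 (1.51) and the TIMP2 fall with shTMLHE #2 (-0.18) lost their calls. Among results for single genes 4016 kept direction and side of the threshold, 104 lost and 8 gained a call, 48 moved by more than the replicate spread and 63 turned direction; the cause was not tested. After the GC correction, without and with the replicate block, those that turned were ULBP1 with CCNE1 (-0.0231 and -0.0224), PVR with shTMLHE #2 (0.2684 and 0.2696) and between hairpins (-0.0406 and -0.0409), NECTIN2 with shTMLHE #2 (0.5748 in both), RAET1G with CCNE1 (0.0040 and 0.0130) and shTMLHE #2 (0.0733 and 0.0419), HLA-C (0.3193 and 0.3192), HLA-B (0.6615 in both), TOMM40 (0.3109 and 0.3113), CD59 (-0.4065 and -0.4066), ADAM10 (-0.1000 and -0.0993), ADAM17 (-0.2201 and -0.2129), CALR (0.3371 in both), MMP14 (0.2988 and 0.2992), TIMP2 (0.0131 and 0.0129), SP1 (-0.5486 and -0.5463) and EZH2 (-0.2772 and -0.2766) with shTMLHE #2, APOE with shTMLHE #1 (0.0980 and 0.0985) and #2 (0.7613 and 0.7478), and FADD with shTMLHE #1 (0.1398 and 0.1391) and #2 (0.0971 and 0.0957). With total counts they were PVR (0.3159), NECTIN2 (0.2529), HLA-B (0.2436), TOMM40 (0.2150), PCNA (0.1474), CALR (0.4121), HMGB1 (0.4232), MMP14 (0.1966) and TIMP2 (0.3522) with shTMLHE #2, and RAET1E (0.0074), TOMM40 (0.0679), HLA-E (0.0742), FADD (0.1283), HMGB1 (0.0529), ADAM17 (0.2547) and EZH2 (0.1890) with shTMLHE #1. Upper quartile scaling turned HMGB1 with shTMLHE #2 (0.0068). Leaving out 1 library ranged RAET1E with shTMLHE #1 from -0.6441 to 0.3169, and RAET1G from -0.5251 to 0.1409 with CCNE1 and from -0.0775 to 0.5891 with shTMLHE #1. ULBP3, RAET1E, RAET1L and RAET1G had the fewest counts, which limits their precision.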
